A study of Homo sapiens with 6 samples.

Results

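The globin genes were followed in K562 cells, a human erythroleukemia line, after knockdown (KD) of PCBP1. The 10 genes of the alpha and beta globin clusters were chosen by symbol: HBZ, HBM, HBA2, HBA1 and HBQ1 on chromosome 16, and HBE1, HBG2, HBG1, HBD and HBB on chromosome 11. They were 10 of 62252 genes with a transcript in the files. Cells were transduced with lentiviral particles carrying a pLKO.1 plasmid with a hairpin against luciferase (shCtrl) or against PCBP1 (shPCBP1), in 8 µg/mL polybrene, and all were then selected in 3 µg/mL puromycin. Each group held 3 poly-A RNA libraries, and nothing in the labels says whether these were separate cultures, so p-values measure the spread between these libraries. A single hairpin per target was named, so an effect of that hairpin and an effect of losing PCBP1 cannot be told apart.

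Hemoglobin is a tetramer of alpha-like and beta-like chains, and each cluster holds genes used in the embryo, the fetus or the adult. HBZ (zeta) and HBE1 (epsilon) are the embryonic genes, HBG1 and HBG2 encode the fetal gamma chains, HBA1 and HBA2 encode the alpha chain used from the fetus onward, and HBB and HBD encode the adult beta and delta chains. PCBP1, also called αCP1, is known to bind a C-rich element in the 3′ untranslated region (3′ UTR) of alpha-globin mRNA, in a complex that stabilizes this mRNA. K562 cells are known for making embryonic and fetal globins.

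The C-rich stretches are shown because they are the known contact of PCBP1 with these mRNAs. For each globin gene the 30-base window of the 3′ UTR with the most C was located in the GENCODE v44 transcript (hg38). The capitals mark each C.
HBA1: CCtCCCCCCagCCCCtCCtCCCCttCCtgC
HBA2: CCCtCCtCCCCtCCttgCaCCggCCCttCC
The HBA1 window, chr16:177449-177478 on the plus strand, held 21 C, and 1.04% of the 2410 3′ UTRs of 0.5 to 2 times its length had a window with as many. The HBA2 window, chr16:173650-173679 on the plus strand, held 19 C, a count reached by 4.96% of 2379 such 3′ UTRs. HBZ followed with 17 C, and HBQ1 and HBE1 had 14 each. The gamma genes had 9 C in their best window, and HBB and HBD had 10. These counts describe the reference sequence and no binding was measured here.

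The labels were first checked with PCBP1 itself, which was listed at 328, 320 and 305 TPM (a level scaled to transcript length and library size) in the shCtrl libraries and at 51.9, 58.5 and 58.4 TPM in the shPCBP1 libraries. Its log2 fold change was -2.47 (SE 0.0439), which left 18.1% of the control level. The libraries held between 67066747 and 140522444 estimated counts, and libraries of the same group differed by more than sampling noise. Of 9 erythroid markers, 8 were above 1 TPM in all libraries, and their summed level was 676 to 789 TPM in shCtrl and 682 to 714 TPM in shPCBP1. Summed megakaryocyte markers spanned 146 to 158 TPM against 157 to 173 TPM, with 3 of 9 above 1 TPM in all libraries and GP9 at 0 in all of them. GP1BB made up most of that sum, at 126 to 142 TPM in shCtrl and 148 to 165 TPM in shPCBP1, while ITGA2B, the platelet integrin alpha IIb, fell from between 13.1 and 17.0 TPM to between 3.29 and 5.09 TPM (log2 fold change -1.91, DESeq2 adjusted p 9.62e-11). Both genes were singled out after their values were seen. Granulocyte and monocyte markers summed to 47.2 to 53.1 TPM and 46.3 to 54.2 TPM (1 of 6 above 1 TPM in all libraries), and lymphoid markers to 65.0 to 76.8 TPM and 47.9 to 64.9 TPM (2 of 6). CD3D made up most of the lymphoid sum, at 61.7 to 73.7 TPM in shCtrl and 46.5 to 63.0 TPM in shPCBP1 (DESeq2 adjusted p 0.199). Fewer cells of a type and less RNA per cell cannot be told apart in such bulk libraries, and the part of these markers in the results was not tested.

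Globin mRNA made up between 3.37% and 4.13% of all TPM in the shCtrl libraries and between 3.89% and 4.10% in the shPCBP1 libraries. Levels fell into clear steps. HBG2 was the most abundant, at 13763 ± 1162 TPM in shCtrl (SD, n = 3), followed by HBE1 at 8741 ± 960 and HBG1 at 7863 ± 609. HBE1 was above HBG1 in every shCtrl library, but the ranges of these genes over the group overlapped. HBA1 came next at 4126 ± 561 TPM, then HBA2 at 1995 ± 387 and HBZ at 694 ± 163. HBQ1, which encodes the theta chain, stood at 71.0 ± 3.59 TPM and HBD at 21.5 ± 6.12. Most of the HBD level in shCtrl, a mean of 83.5%, was assigned to the transcript ENST00000643122. The canonical HBD transcript of the annotation, ENST00000650601, was listed at 0, 0 and 5.59 TPM in shCtrl and at 12.6, 4.35 and 2.52 TPM in shPCBP1. The adult gene HBB, with 2 to 28 estimated counts per library, and HBM, which encodes the mu chain, with 0 to 9.28 counts, were near the limit of detection, where 0 counts still allow up to 3. The beta cluster outweighed the alpha cluster in every library, since the ratio of their summed TPM was 0.226 ± 0.0159 in shCtrl and 0.230 ± 0.00907 in shPCBP1, with overlapping ranges.

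**Figure D1:**
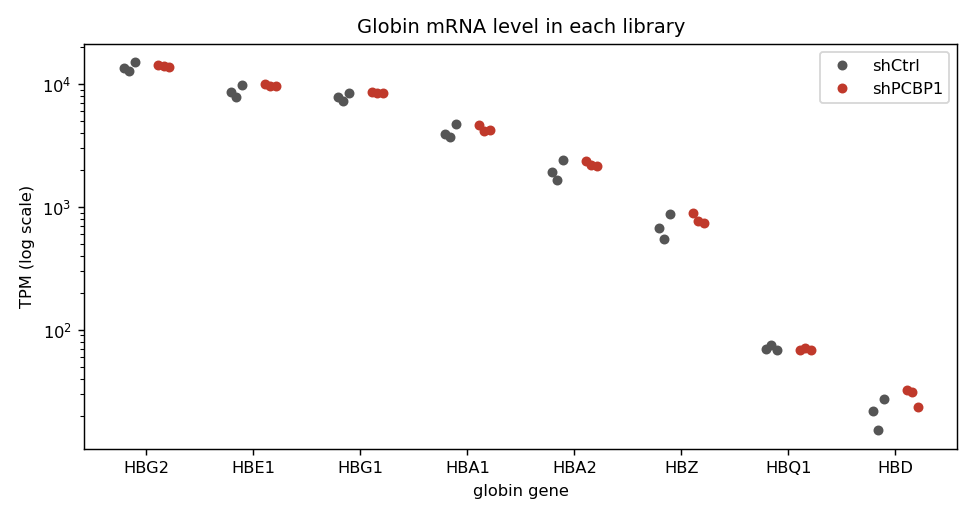
TPM of the 8 globin genes above 10 TPM in all libraries, on a log axis, with 1 point per library for shCtrl (grey) and shPCBP1 (red). The same order of genes holds in both groups, and for each gene the points of the groups overlap.

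No globin gene had TPM values that separated the groups in either direction: the ranges overlapped for all 10. Of the tested genes, which leave out HBB and HBM, 18.7% had non-overlapping ranges with the higher values in shPCBP1. The share with the lower values in shPCBP1 is not given here. In the count model, 8 globin genes received an adjusted p, and 1 of them, HBG1, passed at 0.05, where 29.2% of 18194 tested genes passed in either direction and 16.5% passed as higher. No globin gene met the fold change over 2 that a log2 threshold of 1 sets, which 1.51% of tested genes met together with the adjusted p. The fitted fold change was above 0 for 9 genes and below 0 for HBM alone, whose counts are too low to read.

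HBG1 was listed at 7850, 7261 and 8479 TPM in the shCtrl libraries and at 8687, 8452 and 8383 TPM in the shPCBP1 libraries. The shPCBP1 libraries lay close together near the top of the control range, which the third control library reached. In normalized counts the mean of HBG1 was 205295 ± 15584 in shCtrl and 229311 ± 9169 in shPCBP1 (SD, n = 3). Its log2 change of 0.16 had an SE of 0.0469 and passed in DESeq2 (adjusted p 0.00379), a rise of 11.7% with a 95% interval of 4.80% to 19.0%. The call was lost with transcript length offsets (log2 fold change 0.13, DESeq2 adjusted p 0.131), with limma on TPM (0.12, adjusted p 0.341) and without shPCBP1 replicate 1 (0.13, DESeq2 adjusted p 0.0607). It was also made on a gene whose final DESeq2 dispersion was 1.97 times the trend. That ratio was above that of 98.2% of 28821 genes, which were of every level and not matched to HBG1.

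HBG2, the other gamma gene, was listed at 13618, 12681 and 14991 TPM in shCtrl and at 14276, 13895 and 13818 TPM in shPCBP1. Its groups overlapped fully, with a log2 fold change of 0.07 (SE 0.0480) and an adjusted p of 0.296 in DESeq2. Taken as a pair, HBG1+HBG2 gave a log2 fold change of 0.10 (SE 0.0473) and an adjusted p of 0.0864 in DESeq2, so the sum did not pass where HBG1 alone did.

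HBE1, the embryonic beta-like gene, was listed at 8645, 7833 and 9746 TPM in shCtrl and at 10017, 9567 and 9548 TPM in shPCBP1. Only the third control library reached into the shPCBP1 range. The log2 fold change was 0.20 (SE 0.0976, DESeq2 adjusted p 0.123), with a 95% interval of 0.296% to 30.8% higher before adjustment. HBE1 did pass with edgeR (adjusted p 0.0336). In DESeq2 it passed when shCtrl replicate 2 was left out (adjusted p 0.0397) and when shCtrl replicate 3 was (3.18e-06).

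The alpha-globin genes, the known targets of PCBP1 binding, did not pass in either direction, and their mean levels were slightly higher after KD. HBA1 was listed at 3953, 3672 and 4753 TPM in shCtrl and at 4647, 4170 and 4194 TPM in shPCBP1. HBA2 was listed at 1918, 1652 and 2414 TPM in shCtrl and at 2341, 2202 and 2140 TPM in shPCBP1. For both, the control libraries spanned a wider range than the shPCBP1 libraries and enclosed them. The pair HBA1+HBA2 had a log2 fold change of 0.16 (SE 0.138) and an adjusted p of 0.423 in DESeq2, and its 95% interval ran from 7.18% lower to 34.9% higher. The lower limit of that interval turned on single libraries, from 11.7% lower without shPCBP1 replicate 1 to 5.39% higher without shCtrl replicate 3.

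HBZ, the embryonic alpha-like gene, was listed at 671, 545 and 868 TPM in shCtrl and at 896, 769 and 735 TPM in shPCBP1, a log2 fold change of 0.28 (SE 0.225) and an adjusted p of 0.400 in DESeq2. HBZ had the largest dispersion against the trend among the globin genes, 37.6 times. HBD, the minor adult gene, had a log2 fold change of 0.37 (SE 0.259) and an adjusted p of 0.307 in DESeq2, and HBQ1 of 0.05 (SE 0.0806, DESeq2 adjusted p 0.682). The dispersion of HBQ1 was 0.785 times the trend for genes of its level. For the other 7 globin genes above 10 TPM the ratio to the trend exceeded that of 98% of all genes.

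The calls turned on single libraries. Among the shCtrl libraries the third had the highest HBG2, HBA1 and HBA2, in TPM and in normalized counts. Over all 6 libraries it was the highest for these genes in TPM, while in normalized counts shPCBP1 replicate 1 was. For the third shCtrl library the effective length of the main HBG2 transcript was 296 bases, against 307 to 315 bases in the other libraries. With transcript length offsets in the model, 0 globin genes passed in DESeq2, where 22.8% of all tested genes did, and 3 had an unadjusted p under 0.05. Without this library, 6 of the 10 globin genes passed in place of 1, where 28.4% of all tested genes did: HBG1, HBE1, HBG2 (log2 fold change 0.13, DESeq2 adjusted p 0.0276), HBA2 (0.37, adjusted p 0.00781), HBZ (0.47, adjusted p 0.0432) and HBD (0.55, adjusted p 0.00687). Both pairs then passed as well, HBA1+HBA2 at 0.28 (DESeq2 adjusted p 0.0283) and HBG1+HBG2 at 0.16 (0.00482). Without shPCBP1 replicate 1, on the other hand, 0 passed in DESeq2 (24.0% of all tested genes), and 1 had an unadjusted p under 0.05. edgeR, run on all 6 libraries, passed 2, against 15.9% of all genes it tested.

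**Figure D2:**
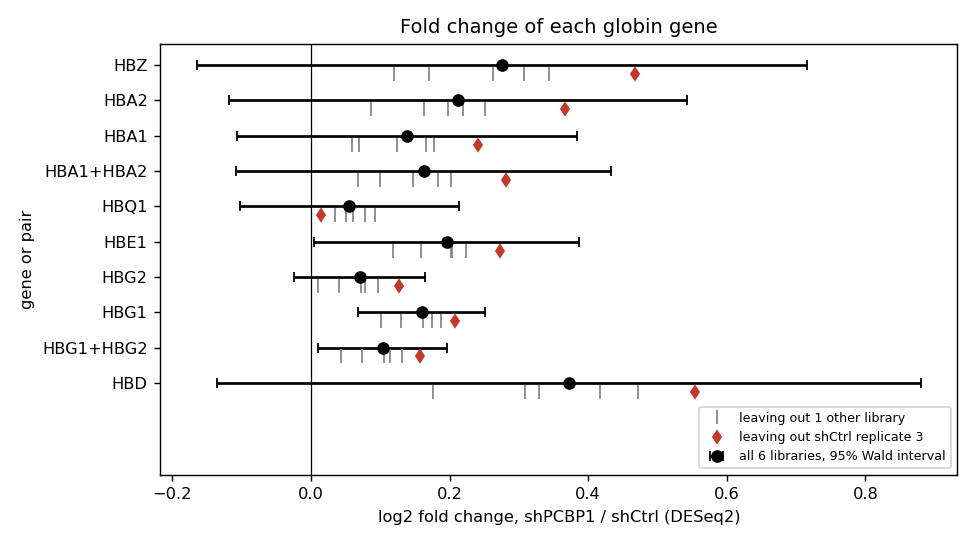
Log2 fold change (shPCBP1 over shCtrl, DESeq2) of 8 globin genes and both pairs, with 95% Wald intervals (black), the values leaving out 1 library (grey ticks) and those leaving out shCtrl replicate 3 (red). Only HBG1, HBE1 and HBG1+HBG2 have intervals above 0 before adjustment, and the red marks lie highest for each gene but HBQ1.

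Shares within a cluster do not move with library scaling, and they were compared next. HBE1 held 28.7%, 28.2% and 29.3% of beta-cluster TPM in shCtrl and 30.3%, 29.9% and 30.0% in shPCBP1. These groups did not overlap, with a difference of 1.38 percentage points. HBG1 held 36.6%, 36.4% and 36.1% of HBG1+HBG2 in shCtrl and 37.8% in each shPCBP1 library. This was the tightest of the shares, with a difference of 1.44 percentage points and SDs of 0.223 and 0.0387. For both, the two-sided exact permutation p was 0.1, the smallest that 3 against 3 libraries can give, and 0.2 after adjustment over the 4 shares tested. Both shares have HBG2 in the denominator, so they are not separate findings. HBG2 held 45.2%, 45.6% and 45.1% of beta-cluster TPM in shCtrl and 43.2%, 43.5% and 43.5% in shPCBP1. That share was lower by 1.90 percentage points without overlap, and it was not among the shares tested. HBZ held 10.0 ± 0.780% of the alpha cluster in shCtrl and 10.7 ± 0.488% in shPCBP1 (exact permutation p = 0.3, n = 3), and HBA2 held 32.5 ± 1.34% and 33.9 ± 0.545% of its pair (exact permutation p = 0.2, n = 3). Both of these overlapped between groups.

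**Figure D3:**
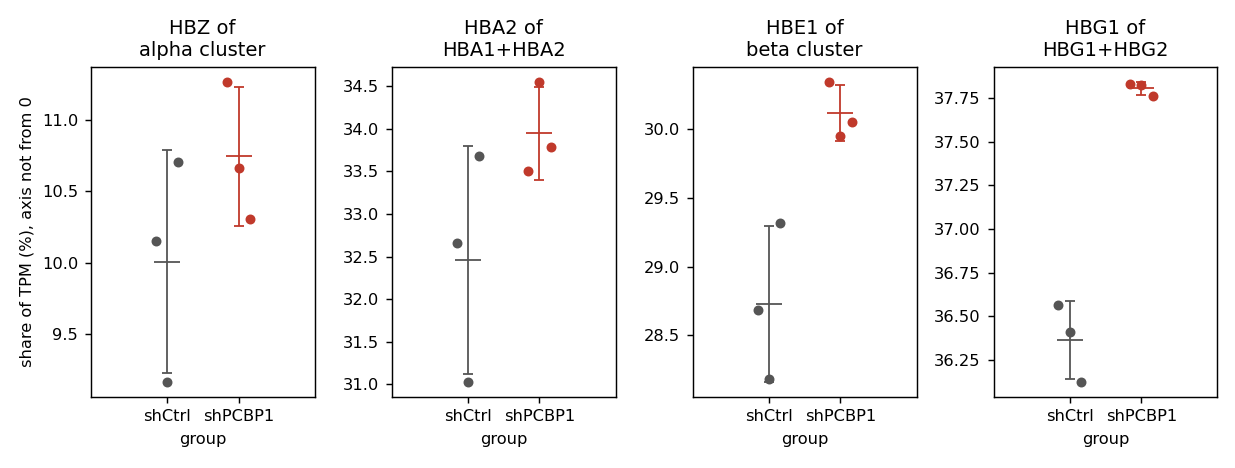
Share of TPM in percent for HBZ, HBA2, HBE1 and HBG1 within the cluster or pair named above each panel, with 1 point per library and the mean ± SD. The axes do not start at 0, and the groups separate for HBE1 and HBG1 but overlap for HBZ and HBA2.

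The HBG1 share rests on few differing bases. The main transcripts of HBG1 (ENST00000330597) and HBG2 (ENST00000336906) differed at 2 coding positions, C280T and C463G (HBG1 base first, counted from 1 at the 5′ end of the HBG1 transcript). In the 3′ UTR they differed at T514G and G575A, and base 552 of HBG1 had no counterpart in HBG2. Another transcript, of the gene ENSG00000284931, joins HBG2 exons to the last exon of HBG1, and has the HBG1 base at each of these places but position 280. The 30-base windows of the coding differences are shown because such bases are what tells the reads apart, and the capital marks the differing base. They are reference sequence, and the bases that K562 cells carry at these places were not checked.
HBG1, position 280: cttgggagatgccaCaaagcacctggatga
HBG2 and joined transcript, position 280: cttgggagatgccaTaaagcacctggatga
HBG1 and joined transcript, position 463: gaagatggtgactgCagtggccagtgccct
HBG2, position 463: gaagatggtgactgGagtggccagtgccct
Position 280 lies at chr11:5249456 in HBG1 and chr11:5254380 in HBG2, and position 463 at chr11:5248393 and chr11:5253311, all on the minus strand. Of the 557 31-base words of the HBG1 transcript, 129 (23.2%) were absent from the HBG2 transcript, and 32 (5.75%) were in neither of the other transcripts. The joined transcript was assigned 2607 to 2971 TPM in shCtrl and 2770 to 2942 TPM in shPCBP1, so the split among the 3 is uncertain. Added to HBG1 it gave a share of 43.6 ± 0.264% against 44.7 ± 0.126%, and added to HBG2, a choice made after seeing the data, 32.2 ± 0.179% against 33.6 ± 0.0580%. The groups did not overlap under either choice.

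Shares of transcripts within HBA1 and HBA2 separated the groups, although the gene levels did not. An annotated transcript of each gene, ENST00000397806 of HBA2 and ENST00000397797 of HBA1, named the short exon 1 transcripts here, leaves exon 1 at a donor site 49 bases upstream of the usual one. These transcripts are also annotated to start 14 (HBA2) and 24 (HBA1) bases downstream of the main ones, with a coding sequence of 333 bases in place of 429 that begins after exon 1. The stretch is shown because both donor sites lie in it, with the GT after each marked in capitals. The sequence is identical in HBA2 (chr16:172949-173017, plus strand) and HBA1 (chr16:176753-176821, plus strand), and covers the end of coding exon 1 and the start of intron 1 in hg38.
HBA2 and HBA1, exon 1 donor sites: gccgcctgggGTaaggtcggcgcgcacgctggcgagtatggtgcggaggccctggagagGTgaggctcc
The short exon 1 transcript held 15.4%, 16.6% and 12.3% of HBA2 TPM in the shCtrl libraries and 23.3%, 20.3% and 19.3% in the shPCBP1 libraries. In HBA1 it held 3.22%, 2.46% and 4.57% of HBA1 TPM in shCtrl and 4.75%, 4.85% and 5.77% in shPCBP1. All shPCBP1 libraries were above all shCtrl libraries for both transcripts.

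The first 480 bases of the main HBA1 and HBA2 transcripts (ENST00000320868 and ENST00000251595) are identical, so a read over the donor site does not say which gene it came from, and the transcripts were also summed. Together they made up 7.18%, 6.84% and 7.17% of HBA1+HBA2 TPM in shCtrl and 10.97%, 10.2% and 10.3% in shPCBP1, a difference of 3.44 percentage points. That is many times the SDs of 0.192 and 0.413 (n = 3). As a share of estimated counts the difference was 2.80 percentage points, and the groups did not overlap either. The sum was assigned 6577 to 14986 estimated counts per library. Salmon divides reads among transcripts that share sequence, and reads over the junction at the upstream donor were not counted. How many reads show the use of that donor is therefore not known here. Among 47102 transcripts of genes above 10 TPM that held 1% to 99% of their gene, 10.4% had non-overlapping shares with the higher values in shPCBP1, and 21.2% in either direction. These transcripts and their sum were picked out after their values were seen, so the sum is given with no test. Of 10 transcript shares of globin genes tested, the 4 of HBA1 and HBA2 (2 higher, and their 2 complements) did not overlap, with an adjusted exact permutation p of 0.25. For HBE1 the main transcript held 97.8 ± 0.210% and 97.9 ± 0.0773% of TPM and the groups overlapped, as they did for the transcripts of HBD.

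**Figure D4:**
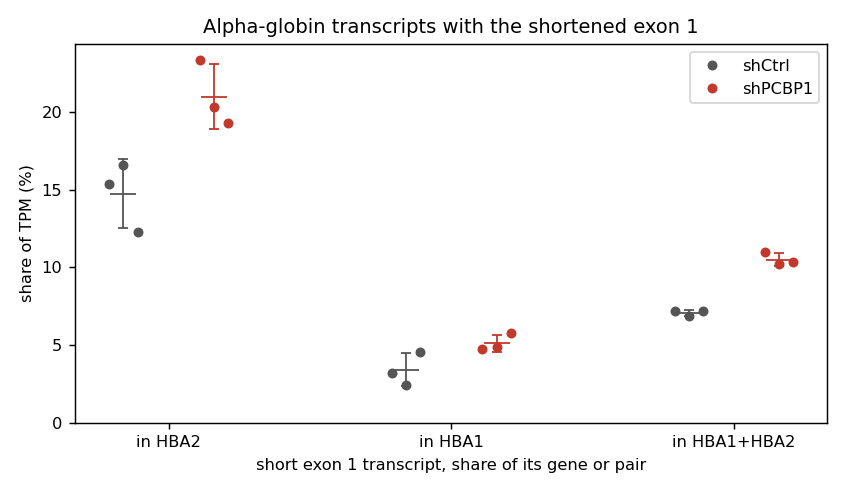
Share of TPM in percent held by the transcripts with the upstream exon 1 donor, for HBA2, HBA1 and both together, with 1 point per library and the mean ± SD. In each case the 3 shPCBP1 libraries lie above the 3 shCtrl libraries, and the summed share shows the least spread.

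Reads of neighbors on the same strand can blur these levels. HBE1 and HBG2 span 237308 and 252418 bases in the annotation because rare transcripts start far upstream, and olfactory receptor genes and pseudogenes lie inside that span. Of these, OR51B5 was listed at 74.0 to 83.4 TPM in shCtrl and 76.0 to 85.1 TPM in shPCBP1, OR51B4 at 25.9 to 38.8 TPM over all libraries and ENSG00000239920 at 19.8 to 24.4 TPM, while the other receptor genes and pseudogenes stayed under 3 TPM. HBD shares exon bases with HBBP1, a pseudogene, and with ENSG00000290652. With all reads of those genes added, the summed row passed (log2 fold change 0.24, DESeq2 adjusted p 0.0399), with a smaller fold change than the 0.37 of HBD alone. HBBP1 was listed at 39.7 to 48.4 TPM in shCtrl, above the 15.2 to 27.4 TPM of HBD, so the call is not one of HBD alone. HBM shares 205 exon bases each with HBZ and HBZP1.

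Genes listed as proteins of the alpha-globin mRNA complex or as partners of globin mRNA were examined as a group. Of 12 genes, 11 were tested and 8 passed, 5 higher and 3 lower, where 29.2% of all tested genes passed. One of the 3 is PCBP1, the target of the hairpin, which was lowered by design. The list had a median log2 fold change of 0.05, against -0.000412 for all tested genes. PCBP2, the close relative that binds the same element, fell from 388 ± 13.5 to 323 ± 2.22 TPM, a log2 change of -0.24 (DESeq2 adjusted p 2.67e-12). PCBP4 fell as well, from 4.85 ± 0.603 to 3.40 ± 0.565 TPM (DESeq2 adjusted p 1.10e-04). IGF2BP1, which binds and stabilizes mRNAs, rose by 0.32 (adjusted p 3.68e-13), and HNRNPD (0.16), HNRNPK (0.14), YBX1 (0.15) and LIN28B (0.11) rose by less, with DESeq2 adjusted p-values from 1.50e-04 to 0.0189. PABPC1, PABPC4 and IGF2BP3 did not pass, and PCBP3 was too low to be tested.

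Among 32 transcription factors known to act at the globin loci, 31 were tested and 20 passed, 16 higher and 4 lower, with a median log2 fold change of 0.11. Of all tested genes, 29.2% passed, 16.5% as higher and 12.7% as lower. NR2F2 (0.58, DESeq2 adjusted p 2.98e-26), ZBTB7A, a repressor of the gamma genes (0.39, adjusted p 6.49e-13), and TCF3 (0.27, adjusted p 1.87e-10) had the lowest p-values. The erythroid regulators GATA1 (-0.07, DESeq2 adjusted p 0.125) and KLF1 (0.07, adjusted p 0.350) did not pass. Other erythroid regulators of the list did. LMO2 (0.28, DESeq2 adjusted p 9.33e-08), TAL1 (0.19, adjusted p 2.13e-05), GFI1B (0.23, adjusted p 8.59e-05) and MYB (0.16, adjusted p 0.00109) were higher. LDB1 (-0.16, DESeq2 adjusted p 3.68e-04) and LYL1 (-0.12, adjusted p 0.00262) were lower. BCL11A averaged 0.0820 and 0.0550 TPM. Of 16 cofactors of globin silencing, 10 passed, 9 higher and 1 lower, with a median of 0.14, beside the same shares of all tested genes. With limma on log2(TPM + 1), 8 of the 32 factors and 7 of the 16 cofactors passed, where 1819 of 28821 genes did. DNMT1, the maintenance DNA methyltransferase, rose by 0.36 (DESeq2 adjusted p 5.11e-25), PRMT5 by 0.34 (3.43e-12) and HDAC1 by 0.29 (4.07e-11).

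Of 19 genes listed for heme metabolism and hemoglobin assembly, 18 were tested and 7 passed, 0 higher and 7 lower. Of all tested genes, 12.7% passed as lower, and the median log2 fold change of the list was -0.11. This direction did not hold throughout. Without shCtrl replicate 3, 8 passed, 3 higher and 5 lower, and with transcript length offsets 6 passed, 1 higher and 5 lower. The ones that were higher without that library were FECH, the last enzyme of heme synthesis (log2 fold change 0.16), and the mitochondrial carriers SLC25A37 (0.14) and SLC25A38 (0.21), with DESeq2 adjusted p-values from 2.69e-04 to 0.0156, and FECH was also the one with length offsets (0.21, adjusted p 0.00665). BLVRB, a biliverdin reductase, fell from 547 ± 19.4 to 381 ± 10.2 TPM (DESeq2 adjusted p 1.65e-30), and PPOX, of heme synthesis, from 32.2 ± 5.54 to 19.8 ± 2.59 TPM (adjusted p 9.03e-11). ABCB10, a mitochondrial transporter, fell by 0.14 on the log2 scale (DESeq2 adjusted p 0.00144). Of 11 neighbors of the clusters, 9 were tested and 3 passed, 0 higher and 3 lower. Of all tested genes, 29.2% passed in either direction and 12.7% as lower. The neighbors that passed were RHBDF1 (-0.35, DESeq2 adjusted p 0.00303), LUC7L (-0.18, adjusted p 0.00472) and MPG (-0.14, adjusted p 0.0377). The count was 2 with transcript length offsets and in 4 of the 6 comparisons that left out 1 library.

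The 5 genes whose normalized counts followed HBG1+HBG2 most closely over the 6 libraries, among 9356 genes with a mean of at least 1000, were DNAJA1, THAP7, ZMPSTE24, MAEA and RPN1. Their Pearson correlations on the log2 scale ran from 0.993 to 0.999. They were picked as the highest of many and share the same libraries, so these values only describe them.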

How the data were processed

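The authors sequenced poly-A RNA and ran Salmon 1.10.2, and deposited per transcript an estimated count (expected count), a TPM value and an effective length. The index annotation is not given in the sources used here. Of 252045 transcripts listed, 251612 matched GENCODE v44, and 33 of the 34 globin transcripts had a row. The HBM transcript without a row is identical in sequence to another HBM transcript. Rounded sums per gene were used where the 6 libraries together reached 10 counts, and groups were compared with the tool of the study, DESeq2 1.42.0 (Wald test). After its independent filtering, Benjamini-Hochberg adjustment ran over 18194 of 28821 fitted genes. In the text a gene passes at an adjusted p of 0.05, without the log2 threshold of 1 that the study added. edgeR 4.0.16 and limma 3.58.1 (log2 of TPM + 1) were alternatives. HBA1+HBA2 and HBG1+HBG2 were refitted as single rows. Shares used TPM and a two-sided exact permutation test (SciPy), on 4 shares and 10 transcript shares. Genes overlapping both HBE1 and HBG2 were added to HBE1 only when shares were recomputed. Replicate numbers were not treated as pairs.

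Named were all 10 members, PCBP1, genes overlapping a member, the 3 genes of lowest adjusted p in each list with all of the mRNA-binding list, and the 5 genes most alike to HBG1+HBG2. GATA1, KLF1, BCL11A, LMO2, TAL1, GFI1B, MYB, LDB1, LYL1, EPOR, ITGA2B, GP1BB, CD3D, FECH, SLC25A37 and SLC25A38 were named after their values were seen. The members, lists and rules were chosen with earlier results of these data known.

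The tests were checked on simulated counts. A first requirement on the number of recovered genes, a round guess, was not met by edgeR. It was lowered, then replaced after the cause was examined by requirements on the recovered fold, on the p-values of unchanged genes and on the recovery of changes large for their spread, which were met. False calls exceeded the nominal rate for every tool, mostly at genes with a dispersion far above the trend, where most globin genes also lie.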

Additional observations from a re-analysis of the deposited data

How the results depend on the processing

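The number of globin genes passing was 2 with edgeR, 2 with overlapping genes added, 0 with transcript length offsets (3 at an unadjusted p under 0.05) and 0 with limma on log2(TPM + 1) (also 0 unadjusted), against 1 in the DESeq2 comparison (2 unadjusted), and 0 to 6 without one library. HBD, summed with HBBP1 and ENSG00000290652, was among the 2 passing with overlapping genes added. Without one library the log2 fold change ranged from 0.0682 to 0.281 for HBA1+HBA2 and from 0.0440 to 0.157 for HBG1+HBG2. HBQ1 changed sign with transcript length offsets (-0.0127) and with limma (-0.0342), and HBM with overlapping genes added (0.43) and, without one library, from -2.61 to 0.40. The cause was not tested. The 4 shares kept their direction under every alternative run, and the ratio of the clusters ranged from -0.00114 to 0.0138 in its difference without one library. With the replicate block HBG1 kept its call (log2 fold change 0.16, adjusted p 0.00220) and 1 globin gene passed. Of the listed genes, 48 passed in the DESeq2 comparison, 41 with the replicate block, 42 to 48 without one library and 23 with limma on log2(TPM + 1) (14 higher, 9 lower), an alternative added for the lists after seeing the data. Deviations of same-numbered libraries correlated at 0.0940, -0.0203 and -0.105, so no strong shared deviation by number was seen. Differently numbered libraries were not compared, so these values cannot say whether same-numbered libraries were prepared together. Over all genes the calls ran from 1819 with limma to 5535 with only genes averaging 50 or more normalized counts, against 5310. HBB and HBM could not be fitted with that minimum. Depth limits HBB and HBM, and the split of reads between near-identical copies limits HBA1, HBA2, HBG1 and HBG2.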
